A study of Mus musculus with 25 samples.

Results

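Intermediate tumours were the 3 mammary tumours with deletion of 1 Trp53 allele whose pathology label was Intermediate. They were set against the 6 tumours labelled Spindloid. These 9 tumours, of 25 arrays in all, were chosen by their pathology label among the genotypes MMTV-Met;Trp53fl/+ and Trp53fl/+, with Cre in both, and the 6 adenocarcinomas of the same genotypes served as the other end of the scale. MMTV-Met is a transgene that drives the receptor tyrosine kinase Met from the mouse mammary tumour virus promoter, and Trp53fl is an allele of the p53 gene that Cre deletes. All mice were FVB females. Tumours Intermediate 1 (nulliparous) and Intermediate 3 (multiparous) were Trp53fl/+, and Intermediate 2 (nulliparous) was MMTV-Met;Trp53fl/+. Spindloid 2, 3 and 5 were MMTV-Met;Trp53fl/+ and nulliparous. Spindloid 1 (nulliparous), 4 (multiparous) and 6 (parity not given) were Trp53fl/+. Adenocarcinoma 1, 5 and 6 were MMTV-Met;Trp53fl/+ (multiparous, multiparous and nulliparous), and Adenocarcinoma 2, 3 and 4 were Trp53fl/+, with parity given for 3 alone (nulliparous). Tumours 3, 5 and 6 of that group were labelled poorly differentiated. Which promoter drives Cre, and whether the remaining Trp53 allele was intact in the tumours, is not given in the sources used here.

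Total RNA of each snap-frozen tumour was hybridised to a one-colour Agilent mouse miRNA array, 1 array per tumour. Between 203 and 264 miRNAs were detected in the intermediate tumours, 200 to 273 in the spindloid tumours and 205 to 270 in the adenocarcinomas. Levels are log2 of the scaled signal, so 1 unit is a 2-fold difference, and 3.64 is the floor given to signals too dim to measure. A miRNA is called where its Benjamini-Hochberg adjusted p in the limma fit of the 15 tumours is under 0.05. The labels do not say that all tumours came from separate mice, and Adenocarcinoma 4 shares a title number with Spindloid 6, as Adenocarcinoma 2 does with 3. The p-values therefore measure the spread between these samples. In pieces of whole tumour, fewer cells of a type and less RNA per cell cannot be told apart.

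MicroRNAs are short RNAs that pair with messenger RNAs through a seed, bases 2 to 8, and lower their translation or stability. The miR-200 family is made by epithelial cells, where it represses the transcription factors ZEB1 and ZEB2, and its loss accompanies the change of carcinoma cells to a spindle, mesenchymal shape. The miR-183, miR-96 and miR-182 cluster and miR-205 are also epithelial, while miR-199 and miR-214 are made by fibroblasts and other mesenchymal cells.

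The mature sequences below are those of some of the miRNAs named in the results that follow. Of 43 miRNAs looked up, 31 were listed in RefSeq on build GRCm38.p6. Capitals mark the seed. The miR-200 family falls into a seed group of 3 and one of 2, and comes from 2 clusters, on chromosomes 4 and 6.
miR-200b-3p: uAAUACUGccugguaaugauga
miR-200c-3p: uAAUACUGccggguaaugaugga
miR-429-3p: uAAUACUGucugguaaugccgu
miR-200a-3p: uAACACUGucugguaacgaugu
miR-141-3p: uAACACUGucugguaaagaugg
miR-183-5p: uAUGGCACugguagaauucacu
miR-96-5p: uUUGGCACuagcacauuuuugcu
miR-182-5p: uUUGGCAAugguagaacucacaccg
The genes of miR-200b-3p (chr4:156055685-156055706), miR-200a-3p (chr4:156054911-156054932) and miR-429-3p (chr4:156053916-156053937) lie side by side on the minus strand, as do those of miR-200c-3p (chr6:124718324-124718346) and miR-141-3p (chr6:124717917-124717938). The members of the miR-183 cluster lie on the minus strand at chr6:30169711-30169732 (miR-183-5p), chr6:30169506-30169528 (miR-96-5p) and chr6:30165962-30165986 (miR-182-5p). The next sequences begin with miR-30a-5p (chr1:23272274-23272295, plus strand), which had all intermediate tumours below all adenocarcinomas, and its passenger strand miR-30a-3p (chr1:23272315-23272336). Then come the 2 miRNAs that set intermediate tumours below all spindloid tumours, and some members of the miR-17 to miR-92a cluster and its paralogs. The members shown here share the seed AAAGUGC apart from miR-92a-3p.
miR-30a-5p: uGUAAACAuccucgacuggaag
miR-30a-3p: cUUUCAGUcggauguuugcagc
miR-5119: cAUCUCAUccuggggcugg
miR-129-2-3p: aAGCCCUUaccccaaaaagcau
miR-92a-3p: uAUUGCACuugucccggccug
miR-20a-5p: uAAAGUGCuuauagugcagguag
miR-20b-5p: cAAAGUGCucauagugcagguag
miR-93-5p: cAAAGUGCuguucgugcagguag
miR-106b-5p: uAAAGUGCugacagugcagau

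Intermediate tumours had miR-200 family levels as low as those of spindloid tumours. miR-200b-3p stood at 3.68, 4.76 and 3.64 in Intermediate 1, 2 and 3. In the spindloid tumours its lowest, median and highest levels were 3.64, 3.70 and 4.91, and in the adenocarcinomas 4.04, 8.77 and 9.73. The intermediate tumours lay inside the spindloid range, and below the adenocarcinomas except that Intermediate 2 was above Adenocarcinoma 4. The difference from spindloid tumours was -0.03 (SE 0.98, unadjusted p = 0.974, limma), and with only the 9 tumours in the fit its 95% interval ran from -0.95 to 0.89. Against the adenocarcinomas the intermediate mean was lower by 3.83 units, not past the threshold (difference -3.83, SE 0.98, limma adjusted p = 0.158).

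The other members followed the same order of groups. miR-429-3p was at 3.64, 4.23 and 3.64 in Intermediate 1, 2 and 3, against 3.64, 3.64 and 4.60 (lowest, median, highest) in spindloid tumours and 3.64, 8.30 and 9.15 in adenocarcinomas. miR-200c-3p was at 3.64, 4.42 and 3.64, against 3.64 to 4.99 in spindloid tumours and 3.78 to 9.84 in adenocarcinomas. miR-200a-3p was at the floor in Intermediate 1 and 3 and at 4.19 in Intermediate 2. None of the 3 intermediate arrays measured miR-141-3p above background. Over the 5 members together, the mean level was 3.65, 4.25 and 3.64 in Intermediate 1, 2 and 3, between 3.64 and 4.46 in spindloid tumours and between 3.75 and 9.12 in adenocarcinomas. In both the intermediate and the spindloid group some tumours kept a trace above the floor: Intermediate 2, Spindloid 1 and Spindloid 5 had means of 4.25, 4.46 and 4.44, and the other 6 of the 9 tumours had 3.66 or less. None of the 5 members was called between intermediate and spindloid tumours, and the median of their differences was -0.07, beside -0.06 over the 286 miRNAs tested. The sign of that median was not stable, running from -0.59 with slide as a block, -0.32 in Trp53fl/+ tumours alone and -0.18 with scan date as a block to 0.05 without Spindloid 1 and 0.08 with genotype as a covariate.

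Adenocarcinoma 4 stood apart from its group in these miRNAs, with a miR-200 family mean of 3.75 where the other 5 adenocarcinomas had 5.95 to 9.12. The calls, named differences, positions and distances that rest on the adenocarcinoma group are therefore also given without it.

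The other epithelial miRNAs were as low in intermediate tumours. miR-183-5p stood at 3.997, 4.20 and 3.69, against 3.64, 4.20 and 4.69 (lowest, median, highest) in spindloid tumours and 3.64, 6.64 and 7.81 in adenocarcinomas. miR-96-5p was at 4.39, 4.69 and 3.70, and miR-182-5p at 4.01, 4.27 and 3.64. All 3 members of the cluster were lowest in Intermediate 3 and highest in Intermediate 2. miR-205-5p, also epithelial, was at the floor in Intermediate 1 and 3 and at 5.32 in Intermediate 2, above the highest spindloid value of 4.91 (Spindloid 5). The epithelial list without the miR-200 family had 4 tested members of 5, and none was called. Of them, 1 had a mean above the spindloid mean, as 100 of all 286 miRNAs did.

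**Figure D1:**
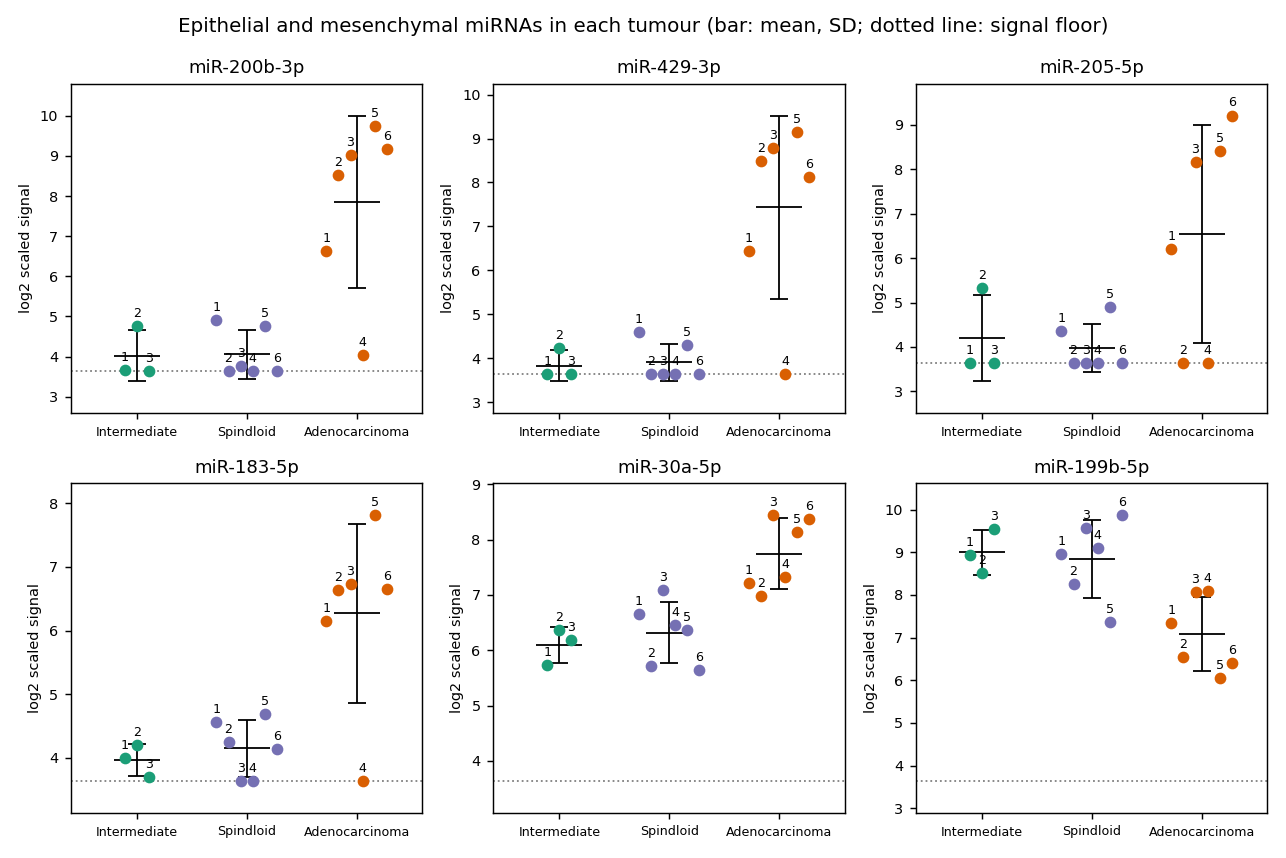
Log2 scaled signal (y axis) of 6 miRNAs in each tumour, by pathology (x axis), with tumour numbers beside the points, the mean and SD as bars, and the signal floor of 3.64 as a dotted line. In the panels of miR-200b-3p, miR-429-3p and miR-183-5p the 3 intermediate tumours sit at 4.76 or below. The 6 spindloid tumours and Adenocarcinoma 4 are at 4.91 or below there, and the other adenocarcinomas at 6.15 or above.

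miR-30a-5p separated intermediate tumours from every adenocarcinoma, Adenocarcinoma 4 included. Its level was 5.73, 6.36 and 6.18 in Intermediate 1, 2 and 3. Spindloid tumours had 5.65, 6.41 and 7.09 (lowest, median, highest) and adenocarcinomas 6.98, 7.73 and 8.44, with 7.33 in Adenocarcinoma 4. The difference between intermediate tumours and adenocarcinomas was -1.65 (SE 0.38, limma adjusted p = 0.158), not past the threshold. The other strand of the same hairpin, miR-30a-3p, was not well above background in any intermediate or spindloid tumour and was measured in all 6 adenocarcinomas, at 3.98 to 5.44, which places intermediate tumours at least 1.68-fold lower (limma adjusted p = 0.304, and 0.126 without Adenocarcinoma 4). Such bounds take, for the dim group, the higher on each array of the lowest measurable signal and the miRNA's own. For the other group they take the mean of all its tumours. miR-30a-3p passed the detection filter only through the adenocarcinomas, so its direction was fixed by the filter and its p-values support nothing.

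Between intermediate tumours and adenocarcinomas, no miRNA of 286 passed (0%, limma). The unadjusted p was under 0.05 for 28 (9.79%), 17 of them lower (5.94%) and 11 higher (3.85%) in intermediate tumours. Without Adenocarcinoma 4, the fit called 8: miR-200b-3p (-4.59), miR-200c-3p (-4.26), miR-429-3p (-4.36), miR-200a-3p (-2.98), miR-183-5p (-2.83), miR-96-5p (-3.10), miR-182-5p (-2.00) and miR-30a-5p (-1.74), all lower in intermediate tumours. Adenocarcinoma 4 was set aside for its own low miR-200 family levels, and it was also at the floor in the miR-183 cluster. Leaving it out raises the adenocarcinoma means of these miRNAs and narrows their spread. The calls in that family and that cluster therefore follow in part from the choice and are no separate support. A fit with parity as a covariate called 15 and one of the nulliparous tumours alone 18. The latter set only Intermediate 1 and 2 against Adenocarcinoma 3 and 6, which were labelled poorly differentiated. Both fits leave out Adenocarcinoma 2, Adenocarcinoma 4 and Spindloid 6, whose parity is not given. Leaving out these 3 tumours with no covariate gave 14. For 9 miRNAs (3.15%) the 3 intermediate tumours did not overlap the 6 adenocarcinomas. The 7 below (2.45%) were miR-30a-5p, miR-30a-3p, miR-30d-5p, miR-30e-3p, let-7b-5p, let-7g-5p and miR-106b-5p, and the 2 above (0.699%) were miR-199b-5p and miR-99b-5p. Without Adenocarcinoma 4, 18 were below (6.29%) and 6 above (2.10%). Of the 7 tested strands of miR-30 hairpins, 4 were among the 7 below, and miR-30b-5p, miR-30c-5p and miR-30e-5p overlapped the adenocarcinomas. miR-30a-3p is in both counts though it was tested only because the adenocarcinomas had it.

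Several miRNAs with a higher mean in spindloid tumours than in adenocarcinomas had a high mean in intermediate tumours too. miR-199b-5p, which mesenchymal cells make, stood at 8.93, 8.51 and 9.54 in Intermediate 1, 2 and 3, all above the highest adenocarcinoma at 8.09. Spindloid tumours ranged from 7.37 to 9.87 around a median of 9.02, with Spindloid 5 alone below that adenocarcinoma. miR-221-3p, which targets the cell-cycle inhibitor p27, was at 8.43, 7.40 and 9.39, against 7.13 to 9.03 in spindloid tumours and 5.15 to 8.25 in adenocarcinomas. Its cluster neighbour miR-222-3p, with the same seed GCUACAU, was at 7.14, 6.20 and 7.77, and both were lowest in Intermediate 2. miR-31-5p was at 10.46, 9.53 and 9.51, against 8.55 to 10.22 in spindloid tumours and 3.64 to 10.77 in adenocarcinomas. The differences from adenocarcinomas were 1.91 for miR-199b-5p (SE 0.57, limma adjusted p = 0.266) and 2.00 for miR-221-3p (SE 0.70, limma adjusted p = 0.334), neither past the threshold. Without Adenocarcinoma 4 they were 2.11 (limma adjusted p = 0.0798) and 2.28 (limma adjusted p = 0.134).

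To place each intermediate tumour on 1 scale, the miRNAs that differed between spindloid tumours and adenocarcinomas were used. The intermediate tumours entered the choice of these miRNAs through the detection filter and the pooled variance, and not through the difference itself. The fit called 3 of 286 (1.05%), all lower in spindloid tumours: miR-200b-3p (-3.80, SE 0.80), miR-429-3p (-3.53, SE 0.75) and miR-30a-5p (-1.42, SE 0.31), each with a limma adjusted p of 0.0455. Blocking by slide or by scan date left 0 calls, and leaving out 1 tumour at a time gave 0 to 10 calls, 10 without Adenocarcinoma 4 and 8 without Adenocarcinoma 1. Other settings gave up to 19 calls. At an unadjusted p under 0.05 there were 35 (12.2%), 25 lower (8.74%) and 10 higher (3.50%) in spindloid tumours, and these 35 give a broader scale. A tumour's position on a miRNA is 0 at the spindloid mean and 1 at the adenocarcinoma mean. For spindloid tumours and adenocarcinomas the miRNAs were chosen and the means taken without the tumour placed.

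All 3 intermediate tumours took positions at the spindloid end. Over the 35 miRNAs the median position was -0.05 for Intermediate 1, 0.17 for Intermediate 2 and -0.08 for Intermediate 3. Without Adenocarcinoma 4, over the 45 miRNAs then at an unadjusted p under 0.05, the positions were -0.06, 0.17 and -0.09. On the scale of 35 they were closer to the spindloid mean on 29, 28 and 30 miRNAs. Of the 6 spindloid tumours, 5 had positions between -0.09 and 0.23, and Spindloid 5 had 0.86. Adenocarcinomas had 0.38, 0.75, 0.92, -0.03, 1.64 and 1.45 in the order of their numbers. The intermediate tumours thus lay among 5 of the spindloid tumours and Adenocarcinoma 4, below the other adenocarcinomas and Spindloid 5. Over the 3 called miRNAs the positions were -0.10, 0.09 and -0.10, and without Spindloid 5, where 2 miRNAs were called, they were 0.31, 0.40 and 0.10.

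**Figure D2:**
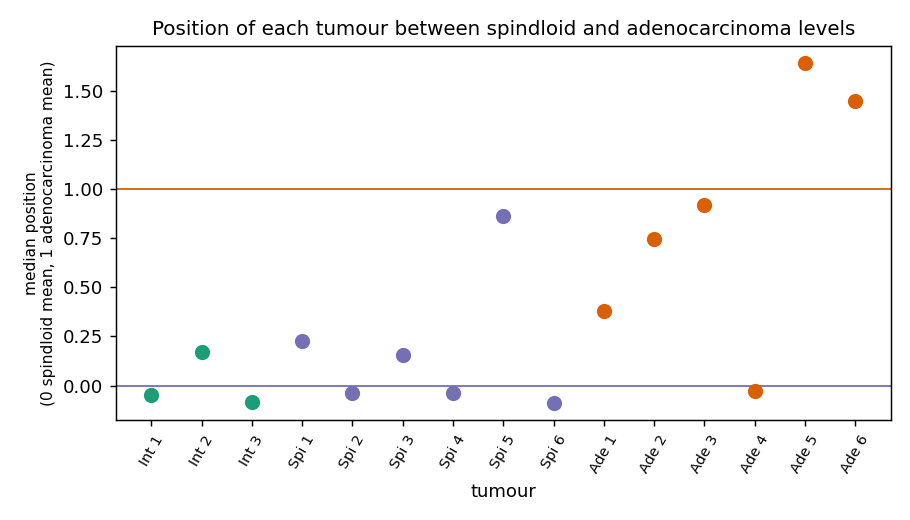
Median position of each tumour (y axis) over the miRNAs at an unadjusted p under 0.05 between spindloid tumours and adenocarcinomas, where 0 is the spindloid mean and 1 the adenocarcinoma mean, with 1 point per tumour (x axis). The 3 intermediate tumours lie between -0.08 and 0.17, and Spindloid 5 at 0.86 and Adenocarcinoma 4 at -0.03 lie away from their own groups.

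Counted by range, Intermediate 1 was inside the spindloid range and outside the adenocarcinoma range on 12 of the 35 miRNAs, and the reverse held on 3. For Intermediate 2 these counts were 8 and 4, and for Intermediate 3 they were 15 and 2. The ranges overlap, so 17, 23 and 16 of the 35 fell inside both. The miRNAs on which the intermediate mean lay at or beyond the middle of the scale were few: miR-93-5p (0.61), miR-92a-3p (1.12), miR-677-3p (1.07) and miR-129-2-3p (1.21). miR-455-3p lay at 0.50.

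**Figure D3:**
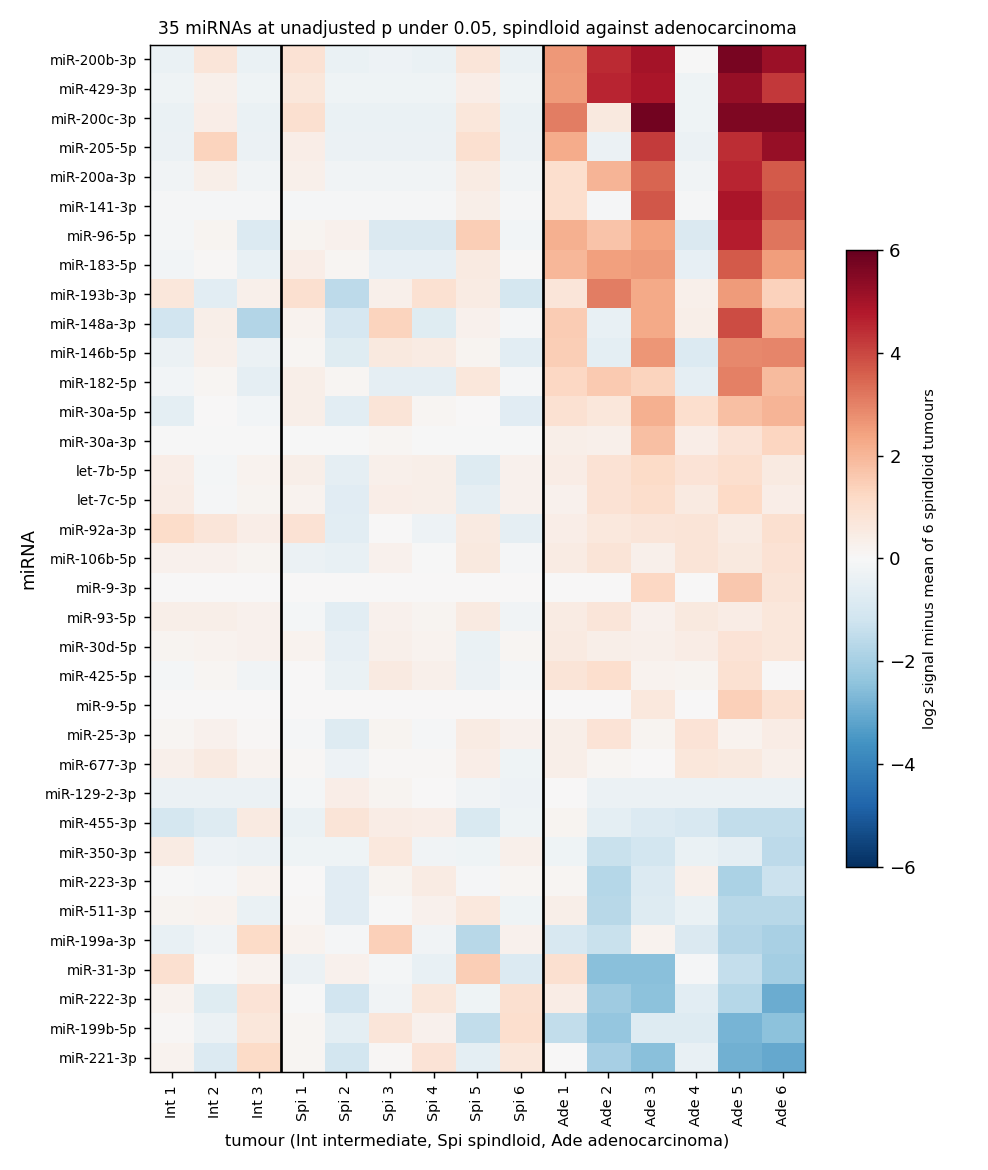
Log2 signal minus the mean of the 6 spindloid tumours (colour) for the 35 miRNAs (rows, ordered by the difference between spindloid tumours and adenocarcinomas) in 15 tumours (columns, with lines between the pathology groups). The 3 intermediate columns are pale, as are most spindloid columns and Adenocarcinoma 4 in the epithelial rows at the top, while the other adenocarcinomas are red there. The rows were chosen by that difference, so the contrast of spindloid tumours with adenocarcinomas is no finding here.

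Over all 286 miRNAs, the distances of intermediate from spindloid tumours fell in the range of those between spindloid tumours, except the shortest. The mean absolute log2 difference between an intermediate and a spindloid tumour was 0.34 to 0.68 over the 18 pairs, with a median of 0.46. It was 0.35 to 0.75 between spindloid tumours (median 0.55, 15 pairs), 0.384 to 0.495 between intermediate tumours (3 pairs) and 0.46 to 0.96 between intermediate tumours and adenocarcinomas (median 0.68, 18 pairs, or 0.70 without Adenocarcinoma 4). Pairs share tumours, so no test was made of them. The nearest tumour to Intermediate 1 and to Intermediate 3 was Spindloid 4, at 0.34 and 0.37, and the nearest to Intermediate 2 was Spindloid 1, at 0.34. For 177 miRNAs all 3 intermediate tumours were inside the range of the 6 spindloid tumours, and for 3 none was. A tumour at the floor counts as inside where a spindloid tumour is also at the floor. Such miRNAs add to the 177 without placing the tumours, and shared floor levels also shorten the distances.

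Set each against 5 spindloid tumours, Intermediate 2 was outside their range on 29.2 miRNAs, averaged over the sets of 5, Intermediate 1 on 58.7 and Intermediate 3 on 84. Each spindloid tumour set against the other 5 was outside on 43 (Spindloid 1) to 109 (Spindloid 3). Intermediate 1 and 3 were thus within the spindloid counts, and Intermediate 2 had the lowest count of the 9 tumours.

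In the direct comparison, 0 of 286 miRNAs (0%) were called between intermediate and spindloid tumours with limma. There were 10 at an unadjusted p under 0.05 (3.50%), 8 higher (2.80%) and 2 lower (0.699%) in intermediate tumours. With only the 9 tumours in the fit, 0 of 280 were called and 7 had an unadjusted p under 0.05 (2.50%). None of the 36 alternative settings gave a call, while the count at an unadjusted p under 0.05 ran from 1 to 21. The 95% interval of the difference lay within a 2-fold change either way for 160 of 286 miRNAs (172 of 280 with only the 9 tumours). For the others a difference of that size is not excluded with 3 against 6 tumours. Nor is it excluded for miRNAs at the floor, because the floor shrinks their differences and intervals. Of the 286, 139 were not detected on at least 1 of the 15 arrays. A single miRNA, miR-467a-3p, had a mean difference over 2-fold (1.10 on the log2 scale), which was 0.66 without Intermediate 1 and 1.68 without Intermediate 2. The number over 2-fold was not stable, at 1 to 6 with 1 tumour left out, 0 after normexp correction, 9 with the lower floor or slide as a block and 20 in Trp53fl/+ tumours alone.

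The miRNAs lower in all 3 intermediate than in all 6 spindloid tumours numbered 2 (0.699%), and none was higher in all 3 (0%). miR-5119 stood at 4.37, 4.30 and 4.10 in Intermediate 1, 2 and 3, against 4.57, 4.78 and 4.89 (lowest, median, highest) in spindloid tumours. The difference was -0.49 (SE 0.20, unadjusted p = 0.0262, limma adjusted p = 1). Adenocarcinomas ranged from 4.29 to 5.44, around the spindloid level. miR-129-2-3p was not well above background in any intermediate tumour. It was measured in 5 of 6 spindloid tumours, at 3.70 to 4.39 over all 6, and in 1 adenocarcinoma. By the bound used for miR-30a-3p it was 1.19-fold lower in intermediate tumours (unadjusted p = 0.0308, limma adjusted p = 1). The undetected spindloid tumour entered that bound at its own signal. The miRNA passed the detection filter only through the spindloid tumours. Its direction was thus fixed by the filter, and its p-value and its place among the 2 support nothing. Within slide 4, which held Intermediate 2 and 3 and Spindloid 4, the differences of miR-5119 and miR-129-2-3p were -0.37 and -0.38. Within slide 3, with 1 tumour of each kind, they were -0.26 and -0.52.

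**Figure D4:**
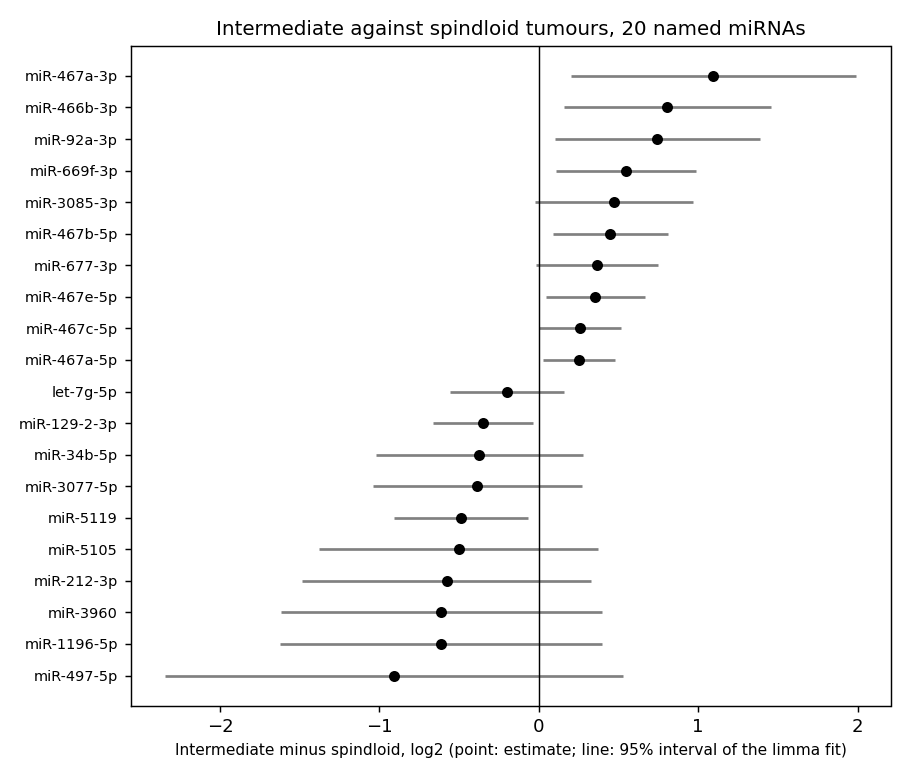
Difference between the mean log2 levels of 3 intermediate and 6 spindloid tumours (x axis) for the 10 miRNAs of smallest unadjusted p in each direction (y axis), with 95% intervals of the limma fit of 15 tumours as lines. The intervals of 10 miRNAs exclude 0, and none passes adjustment over the 286 miRNAs.

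The miR-17 to miR-92a cluster and its paralogs, proliferation-linked miRNAs under MYC and E2F control, leaned toward higher levels in intermediate tumours. All 10 tested members had a higher mean in intermediate than in spindloid tumours, with a median difference of 0.51, where 100 of all 286 miRNAs did and the median was -0.06. The count over all 286 moved with the scaling, to 171 after normexp correction, 162 when scaled to every mouse probe and 149 in the authors' table, while all 10 members were higher in each of these, with medians of 0.27, 0.79 and 0.59. The lean was not shared by all members within MMTV-Met;Trp53fl/+, where Intermediate 2 is the only intermediate tumour. There miR-19a-3p, miR-19b-3p and miR-18a-5p were lower than in spindloid tumours (-0.61, -0.27 and -0.18). The other members were higher, by 0.02 (miR-17-5p) to 0.71 (miR-92a-3p). In Trp53fl/+ tumours miR-19a-3p, miR-19b-3p and miR-18a-5p were higher by 1.34, 1.09 and 1.07. None of the 10 members was called, and 1 had an unadjusted p under 0.05. That was miR-92a-3p, at 8.95, 8.53 and 8.23 in Intermediate 1, 2 and 3, against 7.21, 7.70 and 8.68 (lowest, median, highest) in spindloid tumours and 8.23 to 8.81 in adenocarcinomas. Its difference was 0.74 (SE 0.30, unadjusted p = 0.0261, limma adjusted p = 1), and it was 1.08 within slide 3 and 0.85 within slide 4. The groups overlapped, since Spindloid 1 (8.68) and Spindloid 5 (8.39) were above Intermediate 3.

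miR-20a-5p stood at 9.11, 8.57 and 8.53, against 7.36 to 8.78 in spindloid tumours, and miR-20b-5p at 7.64, 6.92 and 6.92, against 5.87 to 7.32. Their differences were 0.59 (SE 0.30) and 0.63 (SE 0.33). miR-93-5p was held within 7.24 to 7.32 in the 3 intermediate tumours, where spindloid tumours spread from 6.32 to 7.49. The mean over the 10 members was 7.41, 6.89 and 6.95 in Intermediate 1, 2 and 3. Of the spindloid tumours, 5 had means of 6.21 to 6.71 and were below all 3, and Spindloid 5 was at 7.45. Members are transcribed together in 3 clusters, so they do not count as 10 separate observations.

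The 3 intermediate tumours also differed among themselves. For 59 miRNAs the 3 tumours spanned over 1 log2 unit, and the tumour furthest from the other 2 was Intermediate 3 for 28, Intermediate 2 for 22 and Intermediate 1 for 9. The miRNAs described in the next paragraphs were picked for this spread after their values were seen, and no test is attached to the spread.

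Intermediate 1 and 3, the Trp53fl/+ tumours, carried some miRNAs of the miR-466, miR-467 and miR-669 families, which mice encode mainly in an intron of Sfmbt2. miR-467a-3p stood at 5.69 and 5.11 in these tumours and at the floor in Intermediate 2. Spindloid tumours had 3.64, 3.67 and 3.93 (lowest, median, highest), and 1 adenocarcinoma, number 3, had 5.37 where the other 5 had at most 3.93. The difference was 1.10 (SE 0.42, unadjusted p = 0.0201, limma adjusted p = 1), and it was 1.93 within slide 3 and 0.44 within slide 4. miR-466b-3p was at 5.03 and 4.66 in Intermediate 1 and 3, not well above background in Intermediate 2 or in any spindloid tumour, and at 4.88 in Adenocarcinoma 3. By the bound used for miR-30a-3p the intermediate group was 1.48-fold higher for it (limma adjusted p = 1). Intermediate 2 entered that bound at the floor, so 1.48 is no strict lower limit. Of 61 array miRNAs named miR-297, miR-466, miR-467 or miR-669, 15 were tested, and 7 of them were above all 6 spindloid tumours in both Intermediate 1 and Intermediate 3, as were 12 of all 286 (4.20%). Of these 7, 5 were detected on no spindloid array and on exactly 3 of the 15 arrays, the fewest that the filter admits. They were tested only because Intermediate 1, Intermediate 3 and Adenocarcinoma 3 had them, so their direction was fixed by the filter and their p-values support nothing. The 8 miRNAs higher in intermediate than in spindloid tumours at an unadjusted p under 0.05 were these 7 and miR-92a-3p. Other members ran differently: 6 of the 15 were highest in Intermediate 2 among the intermediate tumours, such as miR-466i-5p, at 7.26, 7.92 and 6.36 in Intermediate 1, 2 and 3, against 6.99 to 8.66 in spindloid tumours. The families have near-identical members, which probes may not separate, so they amount to less than 7 observations. The 3 tumours with miR-467a-3p above 5 were all Trp53fl/+, while the Trp53fl/+ tumours Spindloid 1, 4 and 6 had at most 3.93. For miR-467a-3p the intermediate mean minus the spindloid mean was 1.67 in Trp53fl/+ tumours and -0.06 in MMTV-Met;Trp53fl/+ tumours. The latter genotype had 1 intermediate tumour, Intermediate 2, so an interaction of pathology with genotype cannot be told from that tumour alone.

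Intermediate 2 had in turn higher levels of miR-497-5p and miR-195-5p, clustered relatives of miR-15 and miR-16 that restrain the cell cycle, than the other intermediate tumours. miR-497-5p was at 5.55, 7.78 and 4.72 in Intermediate 1, 2 and 3, and miR-195-5p at 5.65, 7.98 and 4.94. The lowest spindloid values were 6.20 and 6.11, so that Intermediate 1 and 3 lay below every spindloid tumour and also below every adenocarcinoma, with lowest values of 6.13 and 6.16. Intermediate 2 lay among the upper spindloid tumours, near Spindloid 1 (7.58 and 7.73) and below Spindloid 3 (8.63 and 8.79). The group difference of miR-497-5p was -0.91 (SE 0.67, unadjusted p = 0.195, limma adjusted p = 1), and it was -1.79 without Intermediate 2, -0.26 without Intermediate 3 and -0.57 without Spindloid 3.

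The imprinted Dlk1-Dio3 cluster, a large set of miRNAs made from the maternal chromosome and active in mesenchymal and embryonic tissue, split the tumours in the same way. miR-127-3p stood at 4.01, 5.99 and 4.03 in Intermediate 1, 2 and 3. Spindloid 1 had 6.19 and Spindloid 3 had 7.16, and the lowest spindloid value was 4.09 (Spindloid 5). The mean over the 10 tested members of 29 in the list was 4.10, 4.99 and 4.08 in the intermediate tumours, between 4.16 and 5.87 in spindloid tumours and between 4.16 and 4.39 in adenocarcinomas. Intermediate 1 and 3 were thus below all other tumours in that mean, and Intermediate 2 was close to Spindloid 1 (4.98). The place of Intermediate 1 and 3 rests on few members. Apart from miR-127-3p and miR-494-3p, every tested member was at the floor in them, and likewise in Spindloid 5 and Adenocarcinoma 5. miR-494-3p was at 7.89 and 7.71 in Intermediate 1 and 3, against 8.41 in Spindloid 5 and 9.18 in Adenocarcinoma 5. None of the 10 members had a higher mean in intermediate than in spindloid tumours, where 100 of all 286 miRNAs did. The median difference was -0.24, beside -0.06 over all 286, and none was called. The median of the 10 members was -0.78 with the lower floor, -0.60 in the authors' table and -0.56 with slide as a block. It was -0.51 without Intermediate 2, -0.07 after normexp correction and -0.05 without Spindloid 3, where 4 of the 10 were higher.

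Intermediate 3 had the highest level of miR-214 and miR-199 among the intermediate tumours. miR-214-3p was at 6.58, 6.99 and 8.65 in Intermediate 1, 2 and 3, against 5.09 to 8.41 in spindloid tumours, and miR-199a-5p was at 6.98, 7.21 and 9.08, against 5.74 to 8.96. The difference in miR-214-3p between the intermediate and spindloid means was 0.55 (SE 0.73, unadjusted p = 0.462). The stromal and mesenchymal list had 10 tested members and a median difference of 0.0008. Of them, 5 had a higher mean in intermediate than in spindloid tumours, as 100 of all 286 miRNAs did. Other members of the list were highest in Intermediate 2, such as miR-10b-5p at 5.30, 6.37 and 4.85 in Intermediate 1, 2 and 3. The list mean of Intermediate 3, 7.72, was below that of Spindloid 3, 8.26. The hypoxia-induced miR-210-3p was in contrast highest in Intermediate 1, at 8.26, against 5.63 and 6.23 in Intermediate 2 and 3 and 5.84 to 8.49 in spindloid tumours.

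**Figure D5:**
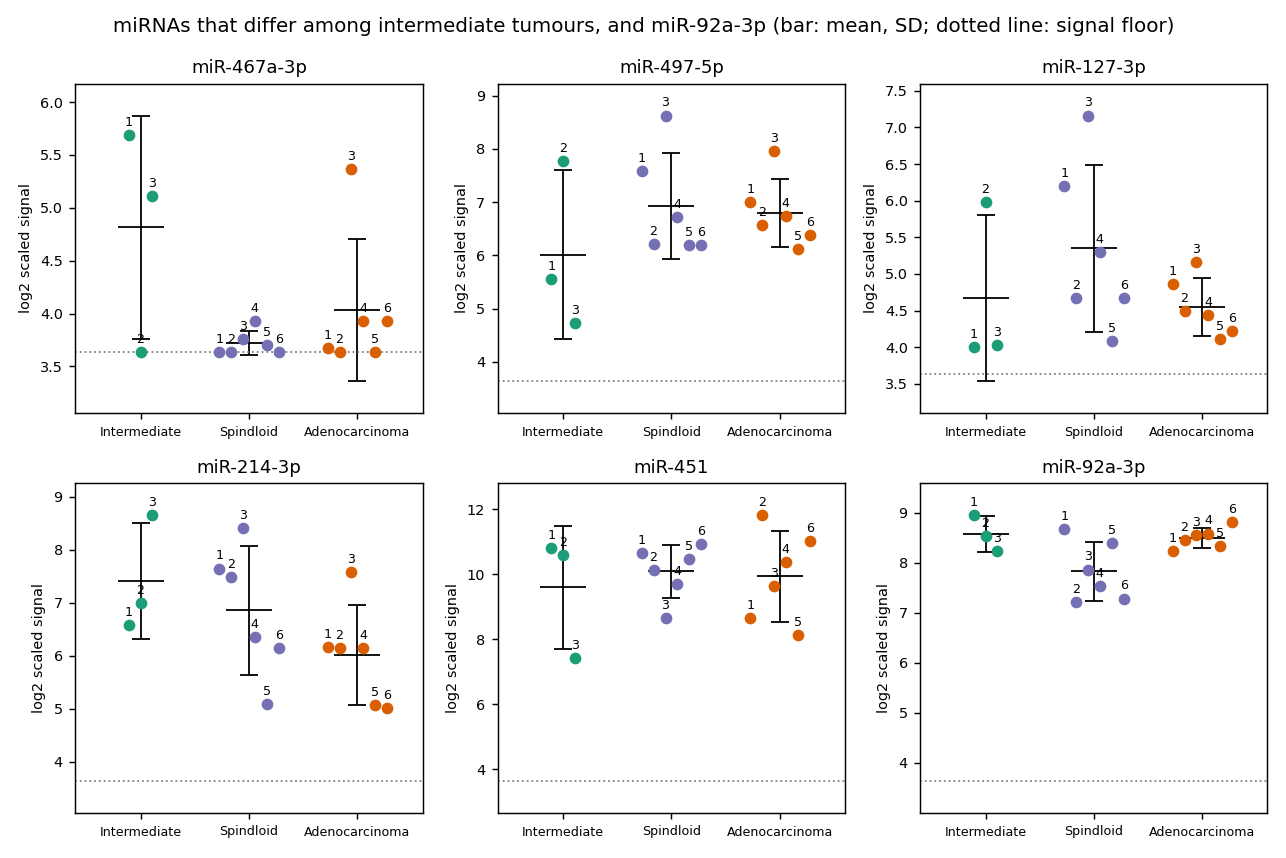
Log2 scaled signal (y axis) of 6 miRNAs in each tumour, by pathology (x axis), with tumour numbers beside the points, the mean and SD as bars, and the signal floor of 3.64 as a dotted line. Intermediate 2 stands apart in miR-467a-3p, miR-497-5p and miR-127-3p, Intermediate 3 in miR-214-3p and miR-451, and in miR-92a-3p the intermediate mean of 8.57 is above the spindloid mean of 7.83.

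Markers of other cells were measured beside these results. The red-cell miRNA miR-451 was at 10.79, 10.58 and 7.42 in Intermediate 1, 2 and 3, and Intermediate 3 was below the spindloid range of 8.64 to 10.92. The mean over the 2 tested of 3 erythroid miRNAs was 8.33, 8.12 and 5.53 in the intermediate tumours and 6.28 to 8.54 in spindloid tumours. The part of blood in the results for Intermediate 3 was not tested. Skeletal muscle miRNAs were at or near the floor in the 3 intermediate tumours (the highest was miR-133b-3p, at 3.88 in Intermediate 3), with a mean over 4 tested of 5 of 3.64, 3.64 and 3.70. Spindloid 1 had 8.76, and Adenocarcinoma 4 and 6 had 7.80 and 8.60. Without these 3 tumours, intermediate against spindloid tumours still gave 0 calls.

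The mean over 6 tested of 7 leukocyte miRNAs was 5.91, 5.91 and 6.25 in the intermediate tumours and 5.50 to 6.82 in spindloid tumours. Endothelial miRNAs, the 2 strands of miR-126, had means of 6.52 to 6.69 and 6.30 to 7.03. Adipose miRNAs, 3 tested of 4, had means of 5.97 to 6.59 and 5.18 to 6.73. Neural miRNAs, 2 tested of 3, had means of 3.85 to 4.02 and 3.70 to 4.37, and miR-9-5p was at the floor in all 9 tumours. Apart from the erythroid mean of Intermediate 3, no intermediate tumour was outside the spindloid range for the mean of these 6 lists.

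The remaining lists gave no call between intermediate and spindloid tumours. Their counts stand beside 100 of all 286 miRNAs with a higher mean in intermediate tumours and a median difference of -0.06. Of the p53-induced miRNAs, 6 were tested of 7 and 1 had a higher mean in intermediate tumours (median difference -0.16). The best known of them, miR-34a-5p, was at 6.55, 6.42 and 6.37, inside the spindloid range of 6.02 to 7.46. Of the let-7 family, which restrains RAS and HMGA2, 6 of 9 were higher (median 0.16), and of the miR-23, miR-24 and miR-27 clusters 4 of 5 (median 0.24). In the list of miR-29 with miR-30 miRNAs 5 of 8 were higher (median 0.09), in that of miR-15 with miR-16 3 of 5 (median 0.12), of the miR-322 and miR-503 cluster 2 of 4 tested (median 0.09), and of the miR-148 and miR-152 family 1 of 3 (median -0.0015). The tumour-associated list of miR-21, miR-31, miR-210 and others had 5 of 6 higher (median 0.14), and miR-21-5p was at 12.87, 12.73 and 13.53, against 12.67 to 13.42 in spindloid tumours.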

How the data were processed

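The deposited scanner files hold intensity values per spot, background-subtracted with Agilent Feature Extraction 10.7.3.1 and not normalised between arrays, per the file headers. A further table deposited by the authors gives log2 values of the spots. The submitters' processing notes name RMA, with no role or version. Its column medians were 1.72 to 1.91, and its centring is not known.

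Processed signals of spots without an outlier flag were averaged per probe and divided by each array's 75th percentile over the 220 probes detected on all 25 arrays (well above background on over 50% of their spots). They were then multiplied by 577.5, the median of these percentiles, floored at 12.45, put on the log2 scale and averaged over the 1 to 4 probes of a miRNA. The floor is the 5th percentile of the scaled signal of detected probes. A miRNA was tested if detected on at least 3 of the 15 tumours, which kept 286 of 1122, and 147 were detected on all 15. The 15 tumours were fitted with limma 3.58.1 in R 4.3.3 (lmFit, eBayes) as 3 groups with no covariates, and adjusted p under 0.05 was a call. The fit was tested on simulated data. 1 tumour of the MMTV-Met;Trp53fl/+ genotype had no stated pathology and entered no comparison.

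The miRNAs named were the 10 of smallest unadjusted p or largest called change in each direction between intermediate and spindloid tumours, 8 in each direction between spindloid tumours and adenocarcinomas, and the list members. The members and lists were chosen with earlier results of these data known. The lists held miR-451a and miR-486-5p, which the array names miR-451 and miR-3107-5p, matched through RefSeq synonyms after the data were seen. The alternatives were normexp (on median spot and background signals, offset 50), quantile normalisation, a percentile taken over every mouse probe, the brightest probe, the authors' table, floors 4 times lower and 2 times higher, every miRNA, the 147 detected throughout, genotype or parity as a covariate, slide or scan date as a block, only the groups compared, all 25 arrays, only Trp53fl/+ or nulliparous tumours, eBayes with trend and robust, and each tumour left out. Fits with parity leave out the 3 tumours of unstated parity, Adenocarcinoma 2 and 4 and Spindloid 6. Replicate numbers only name tumours. No saturated spot was found on the arrays, whose number limits the precision.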

Additional observations from a re-analysis of the deposited data

Results flagged for a closer look

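In 10 of 103 tests of a group of 6 tumours, a single tumour stood further from the rest than Dixon's test allows at its 95% critical value. The usual rate of about 1 in 20 by chance does not hold here, because in 8 of the 10 the other 5 tumours were all at the floor, where any single value above it is picked out whatever its size. Groups of 3 were not tested, so the intermediate tumours themselves could not be picked out in this way.

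Adenocarcinoma 3 was the only adenocarcinoma high in the miRNAs that also set Intermediate 1 and 3 apart. Its level was 5.37 for miR-467a-3p, 4.88 for miR-466b-3p, 4.17 for miR-467b-5p, 4.10 for miR-467e-5p, 3.93 for miR-467c-5p and 3.77 for miR-467a-5p, while the other 5 adenocarcinomas were at or near the floor of 3.64, reaching at most 3.93 for miR-467a-3p. In the same families, Spindloid 5 had 3.82 for miR-669f-3p where the other spindloid tumours were at the floor.

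Adenocarcinoma 1 had 4.001 for miR-129-2-3p where the other adenocarcinomas were at the floor, as the 3 intermediate tumours were. Spindloid 3 had 3.77 for miR-30a-3p, not well above background. The mean of the muscle miRNAs was 8.76 in Spindloid 1 and at the floor in the other 5 spindloid tumours.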

How the results depend on the processing

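No miRNA was called between intermediate and spindloid tumours under any of the 36 alternatives (0 to 0 with each tumour left out), and of 4408 values of 124 single miRNAs under them 0 were called. Signs of uncalled differences within 1 SE of 0 were not counted as reversed. Beyond that, let-7g-5p turned to 0.0852 when scaled to every mouse probe, and miR-30d-5p to -0.0175 with slide as a block. The median difference of all miRNAs was -0.06, and 0.05 when scaled to every mouse probe.

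Spindloid tumours against adenocarcinomas gave 3 calls, but 16 with normexp or with parity as a covariate (a fit that lacks the 3 tumours of unstated parity, as does that of nulliparous tumours), 6 with quantile normalisation or the lower floor, 8 with the authors' table, 5 with genotype as a covariate, 19 in nulliparous tumours, and 0 with the higher floor, with every miRNA or only the 147 detected throughout, when blocked by slide or scan date, with only these groups, all 25 arrays, or only Trp53fl/+ tumours. Leaving out each tumour gave 0 to 10. Intermediate tumours against adenocarcinomas gave 0 calls, but 15 with parity as a covariate, 18 in nulliparous tumours and 0 to 8 with each tumour left out. In alternatives chosen after seeing the data, leaving out Adenocarcinoma 4 and Spindloid 5 together gave 11 and 9 calls in these comparisons, leaving out the 3 tumours with muscle miRNAs gave 5 and 3, and leaving out the 3 tumours of unstated parity, with no covariate, gave 12 and 14. The cause was not tested.

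The position of Intermediate 2 over the called miRNAs, 0.0918, became 0.232 with the authors' table and 0.323 with the lower floor. With each tumour left out, positions ran from -0.0952 to 0.305 (Intermediate 1), 0.0696 to 0.405 (Intermediate 2) and -0.0961 to 0.103 (Intermediate 3), the highest without Spindloid 5. Settings with no call gave no position. No paired analysis was made. The labels carry no replicate numbers, and no intermediate tumour shares a title number with another tumour. The title numbers that some adenocarcinomas share with each other or with a spindloid tumour were not used as a block. miRNAs at the floor give no order, and 139 of the 286 were not detected on at least 1 of the 15 arrays.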

Other observations

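2 tumours outside the comparison were placed on the same scale of 35 miRNAs, where 0 is the spindloid mean and 1 the adenocarcinoma mean. The spindloid tumour of the MMTV-Met genotype without Trp53 deletion had a median position of 0 and was closer to the spindloid mean on 31 of the 35. The MMTV-Met;Trp53fl/+ tumour whose pathology is not stated in the labels was at -0.03 and closer on 33. The other 6 MMTV-Met tumours were at 1.14 to 1.91.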
